A study of Mus musculus with 15 samples.

Results

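The genes described here are 37 regulators and direct targets of the tumour suppressor p53, taken as a named list and matched by symbol to the identifiers of the gene count table. All 37 were among the 34259 genes of the table, and all 37 were among the 17497 genes that passed the filter on low counts. RNA had been sequenced from the mouse glioma cell line GL261 in 15 libraries, which form 5 groups of 3, all collected at day 6. Cells labelled Hoechst-CD133+ went into a freeze-dried hydrogel in 3 groups, named D-gel@GSNP, L-gel@GSNP and also D-gel@NP, stood on ice for 20 min and were then cultured in medium with a cytokine cocktail. The PBS group held cells of the same label given PBS and the cocktail, with no ice step named. The non-SP group held untreated cells from outside the side population, which is the set of cells that expel the DNA dye Hoechst. Every group had new medium on days 2 and 4, and every library is labelled as genotype WT and carries 1 shared batch label. The hydrogels are described as chiral, with D or L in their names, and the labels leave GSNP, NP and the cytokines unexplained. PBS and non-SP cells differed in population and in cytokines together, and each hydrogel group differed from PBS in the ice step as well, so these cannot be told apart. Nothing in the labels says that replicates were separate cultures, so the p-values measure the spread between these libraries, which may be technical.

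The transcription factor p53 is made continuously and destroyed quickly in unstressed cells, because its own target MDM2 marks it for degradation while MDM4 masks its activation domain. Damage or stress frees p53, which then binds pairs of short half-sites in DNA and raises genes that stop the cell cycle, repair DNA, damp growth and metabolism, or kill the cell. Most of this control acts on the protein, so the level of Trp53 RNA does not follow p53 activity closely. GL261 cells have been reported to carry a point mutation in Trp53, and the sequence of the transcript was not analysed here.

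Total counts ran from 16.6 M (mega, D-gel@NP replicate 1) to 98.1 M (L-gel@GSNP replicate 3) per library, and the least counted of the 37 genes, Fas, still had 116 counts in its lowest library. Levels are given as CPM, the usual library-scaled count, with TMM factors in the scaling, and a difference is a log2 difference between group means from edgeR's quasi-likelihood test, called where the p adjusted by Benjamini-Hochberg over all 17497 genes was under 0.05. The D-gel@GSNP libraries stood close to the non-SP libraries over all genes, at distances in log2 CPM of 67.6 to 73.9, against 65.1 to 69.0 within D-gel@GSNP and 67.5 to 69.4 within non-SP. Between D-gel@GSNP and PBS libraries the distance was 113 to 124. D-gel@GSNP libraries, labelled as Hoechst-CD133+ cells given cytokines, were thus almost as near to untreated non-SP libraries as replicates were to each other. The labels were kept, and an exchange of samples or labels was not tested, which bears on every D-gel@GSNP comparison. As a check of the labels, Prom1, which encodes CD133, had 8, 35, 10, 19 and 2 counts over the 3 libraries of D-gel@GSNP, L-gel@GSNP, D-gel@NP, PBS and non-SP, so its RNA was near 0 in the groups labelled CD133+ too. Vim and Cd44, both high in mesenchymal glioma cells, were high in every group: Vim was at 945 ± 30.6 CPM for D-gel@GSNP, 1039 ± 57.1 for L-gel@GSNP, 964 ± 46.3 for D-gel@NP, 1118 ± 42.9 for PBS and 896 ± 5.86 for non-SP, and Cd44 at 539 ± 6.97 CPM for D-gel@GSNP, 891 ± 33.8 for L-gel@GSNP, 932 ± 30.1 for D-gel@NP, 1156 ± 48.0 for PBS and 523 ± 5.85 for non-SP (SD, n = 3).

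The p53 genes stood lower in D-gel@GSNP and non-SP than in the groups between. In the libraries of each group, the median over the 37 genes of the log2 ratio to the non-SP mean was 0.004 to 0.07 in D-gel@GSNP, 0.55 to 0.64 in L-gel@GSNP, 0.70 to 0.82 in D-gel@NP, 0.59 to 0.75 in PBS and -0.009 to 0.011 in non-SP. The share of all counts that fell on the 37 genes was 0.329% to 0.335% in D-gel@GSNP, 0.586% to 0.600% in L-gel@GSNP, 0.627% to 0.680% in D-gel@NP, 0.638% to 0.656% in PBS and 0.331% to 0.334% in non-SP. Abundant genes weigh most in this share: Ephx1, Ccng1 and Trp53inp1 averaged 1376, 790 and 413 CPM in PBS and 376.5, 287 and 70.8 in non-SP. For 26 of the 37 genes, D-gel@GSNP and non-SP were the 2 groups with the lowest mean, and for 4 genes they were the 2 highest. These are 70.3% and 10.8% of the 37 genes, against 32.6% and 30.2% of all 17497 tested genes. The heat map of the genes by library shows the low block at both ends and the high block between them.

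**Figure D1:**
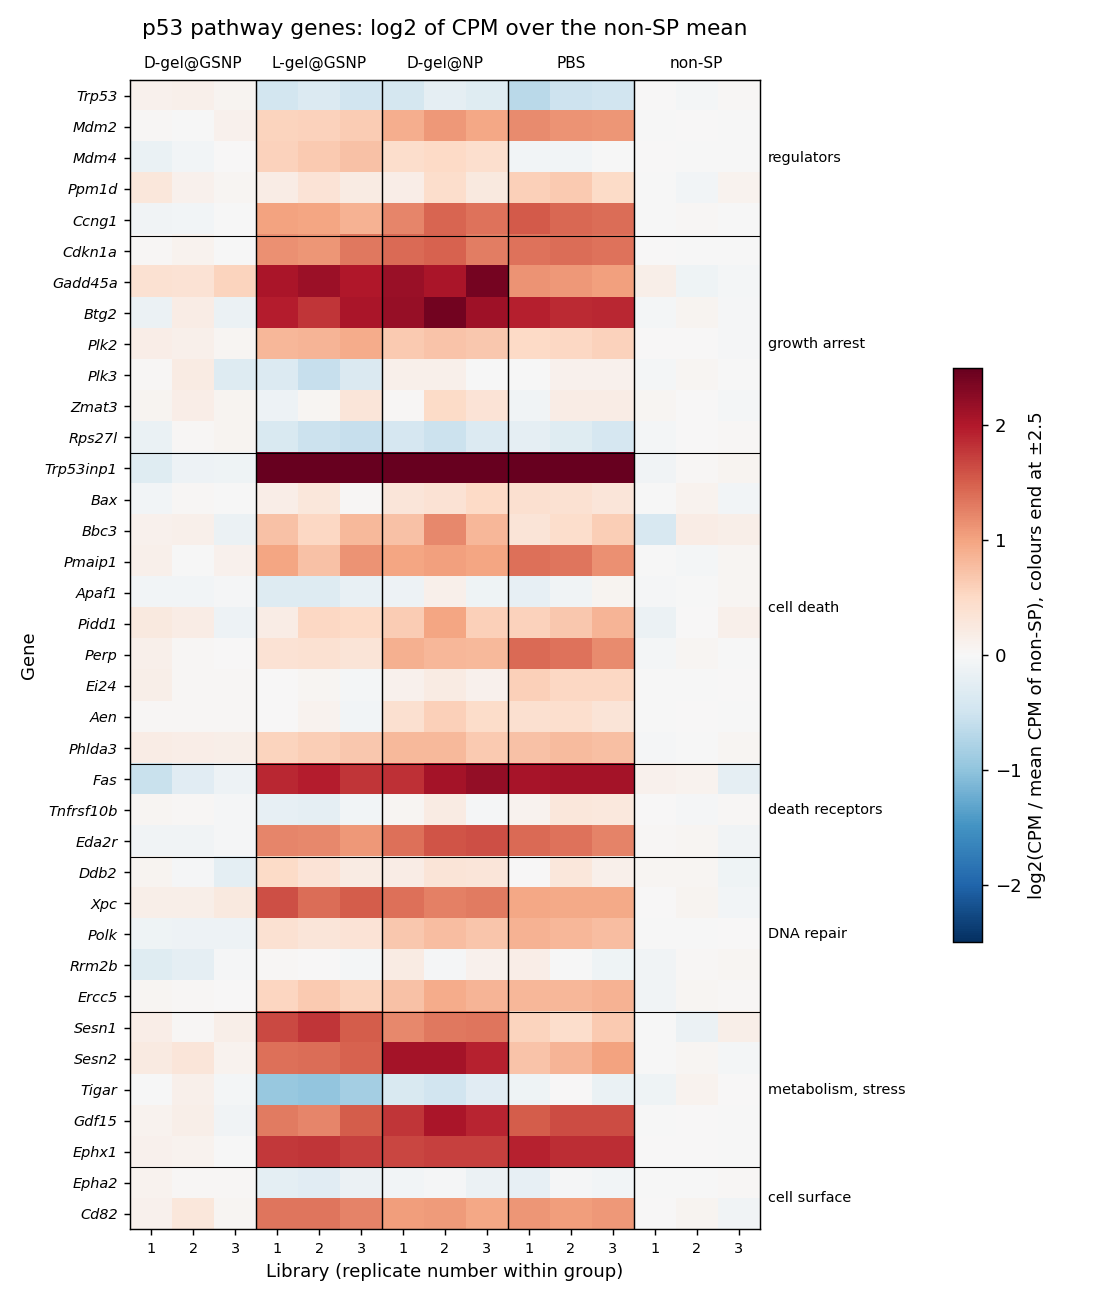
Log2 ratio of each gene's CPM in each library to its mean CPM in non-SP, for the 37 genes in rows, grouped by role, and the 15 libraries in columns, grouped by treatment. The 3 D-gel@GSNP columns have medians of 0.004 to 0.07, near the non-SP columns, while the L-gel@GSNP, D-gel@NP and PBS columns have medians of 0.55 to 0.82. Trp53, Rps27l, Tigar and Epha2 have their 2 highest means in D-gel@GSNP and non-SP, though Tigar and Epha2 were not called between PBS and non-SP.

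PBS against non-SP sets Hoechst-CD133+ cells that had cytokines beside untreated cells of the other fraction. Of the 37 genes, 27 were higher in PBS, where 27.6% of all tested genes were higher, and 2 were lower, where 26.1% of all genes were lower. The other 8 were not called. The median log2 difference was 0.71 over the 37 genes and 0.019 over all tested genes. In 13 of the 27 the rise was at least 2-fold, as it was in 9.33% of all genes. The largest were Trp53inp1, Fas, Btg2, Ephx1, Gdf15, Ccng1, Cdkn1a and Eda2r. Those lower were Trp53 itself and Rps27l.

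D-gel@GSNP against PBS sets cells in that hydrogel beside Hoechst-CD133+ cells that had the cocktail without one. Of the 37 genes, 28 were lower in D-gel@GSNP, against 27.5% of all genes, and 3 were higher, against 27.4%. At least 2-fold lower were 11 of the 28, and 9.36% of all genes. The median log2 difference was -0.60 over the 37 genes and -0.023 over all genes. Higher were Trp53, Rps27l and Epha2. These values share the PBS libraries with the comparison above, so the 2 counts are not independent of each other.

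Other measures moved with the same groups. Summed over 12 markers of macrophages and microglia, the level was 12.1 to 13.0 CPM in D-gel@GSNP, 38.6 to 45.3 in L-gel@GSNP, 33.1 to 41.0 in D-gel@NP, 67.0 to 75.1 in PBS and 11.1 to 11.3 in non-SP. Of the 8 tested, 5 were higher in PBS than in non-SP, led by Csf1r and Cd68. In this comparison, also used for the marker lists below, 27.6% of all tested genes were higher and 26.1% lower. Tyrobp had 0 counts in L-gel@GSNP, PBS and non-SP and 2 in each other group, and Fcgr1 and Adgre1 had 0 in non-SP. The markers of T cells summed to at most 0.175 CPM in any library. Of 2 tested endothelial markers neither was called, and of 3 tested fibroblast markers 2 were higher and 1 lower in PBS than in non-SP. The fibroblast markers summed to 688 to 712 CPM in D-gel@GSNP, 1308 to 1468 in L-gel@GSNP, 1454 to 1511 in D-gel@NP, 1291 to 1365 in PBS and 693 to 721 in non-SP. The sum does not stand for each marker. Against non-SP, 1 of the 3 was higher and 2 were lower in L-gel@GSNP (median log2 difference -1.28) and likewise in D-gel@NP (median -0.56). Of all genes, 30.6% were higher and 29.2% lower in L-gel@GSNP, and 29.1% and 27% in D-gel@NP. A list of 8 glioma and stem-like markers, almost all of whose sum is Vim and Cd44, summed to 1457 to 1527 CPM in D-gel@GSNP, 1840 to 2020 in L-gel@GSNP, 1811 to 1950 in D-gel@NP, 2226 to 2363 in PBS and 1413 to 1436 in non-SP. Of its 5 tested genes, Vim and Cd44 were higher and Nes, at 1.24 ± 0.53 against 3.70 ± 0.152 CPM, was lower in PBS than in non-SP, while Gfap and S100b were not called and averaged under 1.1 CPM in every group. Mitochondrially encoded genes took a share of the counts of 3.00% ± 0.316 for D-gel@GSNP, 4.50% ± 0.192 for L-gel@GSNP, 4.63% ± 0.191 for D-gel@NP, 5.97% ± 0.343 for PBS and 2.86% ± 0.0554 for non-SP (SD, n = 3). With those genes left out of the fit, the same 29 p53 genes were called between PBS and non-SP. That refit shifted the log2 differences of all genes by a median of only -0.016, so it cannot tell what the mitochondrial share reflects. In bulk RNA, more RNA per cell and a larger share of cells with it cannot be told apart, and the part of marker-bearing cells in these results was not tested.

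The hydrogel groups were then compared with each other. D-gel@GSNP against L-gel@GSNP, which share the suffix GSNP and differ in the D or L of the gel, had 26 of the 37 genes lower, where 31.3% of all genes were lower, and 7 higher, where 30.5% were higher. In 13 of these 26 the fall was at least 2-fold, as in 14.1% of all genes. D-gel@GSNP against D-gel@NP, which share the D gel and differ in the suffix, had 27 genes lower against 29.6% of all genes, 12 of them at least 2-fold against 12.1%, and 4 higher against 28.8%. The median log2 differences over the 37 genes were -0.55 and -0.79 in these comparisons, against -0.039 and -0.037 over all genes. L-gel@GSNP against D-gel@NP, where both differ, had 18 genes lower against 11.1% of all genes and 5 higher against 8.33%, with a median of -0.22.

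**Figure D2:**
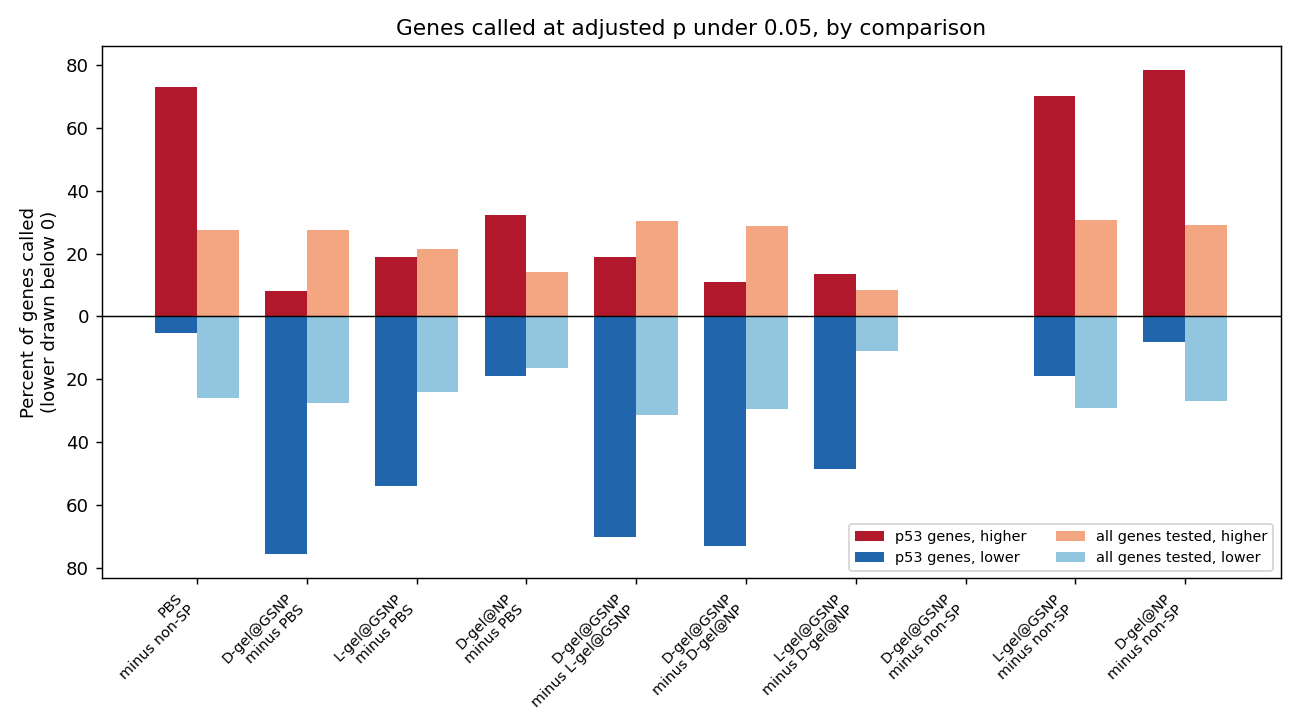
Percent of the 37 p53 genes (dark bars) and of all 17497 tested genes (light bars) called higher (above 0) or lower (below 0) in each of the 10 comparisons, at an adjusted p under 0.05. In PBS minus non-SP 73.0% of the p53 genes were higher, against 27.6% of all genes, and in D-gel@GSNP minus non-SP none was called.

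Against PBS, fewer of the 37 genes were called in the other two hydrogel groups. In L-gel@GSNP 20 genes were lower than in PBS, against 24.1% of all genes, and 7 were higher, against 21.5%, with a median of -0.18. This split depended on the scaling: with upper-quartile factors 12 were lower and 9 higher. In D-gel@NP 7 genes were lower than in PBS, against 16.3% of all genes, and 12 were higher, against 14.2%, with a median of 0.032. Set against non-SP, L-gel@GSNP had 26 genes higher, against 30.6% of all genes, and 7 lower, against 29.2%; 12 of the 26 rose at least 2-fold, against 13.2% of all genes. D-gel@NP had 29 genes higher than non-SP, against 29.1%, and 3 lower, against 27%; 14 of the 29 rose at least 2-fold, against 11.2%.

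In D-gel@GSNP none of the 37 genes was called against non-SP by edgeR, where 0.103% of all genes were higher and 0.314% lower. At an unadjusted p under 0.05 there were 10, or 27% of the 37, against 9.04% of all tested genes. DESeq2 and the fit with no filter on low counts each called 1, Gadd45a. The log2 differences lay between -0.31 for Fas and 0.43 for Gadd45a, with a median of 0.041. For 35 of the 37 genes the 95% interval of the difference lay within 0.5 on the log2 scale either side of 0. The exceptions were Gadd45a, with an interval of 0.23 to 0.64 (adjusted p = 0.0513), and Fas, with -0.59 to -0.04 (adjusted p = 0.471).

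Promoter sequences are shown for Cdkn1a and Mdm2, whose products carry out the best known arms of the pathway, and for Fas, Btg2 and Ephx1, which had the largest differences between PBS and non-SP among the genes with an entry in the RefSeq promoter table (build GRCm38.p6). Each line gives the 250 bases before a transcription start, 5′ to 3′ on the gene's strand, with capitals for every exact match to the 10-base consensus half-site of p53. Cdkn1a has 2 starts in the table and gets 2 lines.
Cdkn1a (chr17:29090729-29090978, plus strand): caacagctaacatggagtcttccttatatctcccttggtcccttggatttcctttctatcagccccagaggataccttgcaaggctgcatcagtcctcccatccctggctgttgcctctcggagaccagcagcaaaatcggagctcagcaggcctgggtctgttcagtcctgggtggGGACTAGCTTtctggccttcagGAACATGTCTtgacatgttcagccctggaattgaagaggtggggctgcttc
Cdkn1a (chr17:29093519-29093768, plus strand): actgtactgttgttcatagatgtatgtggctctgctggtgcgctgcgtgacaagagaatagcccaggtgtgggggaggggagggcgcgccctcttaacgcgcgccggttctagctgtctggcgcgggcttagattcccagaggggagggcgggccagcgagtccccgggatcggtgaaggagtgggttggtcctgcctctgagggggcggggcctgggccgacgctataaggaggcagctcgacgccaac
Mdm2 (chr10:117710759-117711008, minus strand): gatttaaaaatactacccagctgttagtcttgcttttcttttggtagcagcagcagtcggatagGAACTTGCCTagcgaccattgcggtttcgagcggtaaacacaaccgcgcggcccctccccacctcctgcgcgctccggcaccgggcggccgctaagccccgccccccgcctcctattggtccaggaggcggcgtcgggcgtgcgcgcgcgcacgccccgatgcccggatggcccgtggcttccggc
Fas (chr19:34290409-34290658, plus strand): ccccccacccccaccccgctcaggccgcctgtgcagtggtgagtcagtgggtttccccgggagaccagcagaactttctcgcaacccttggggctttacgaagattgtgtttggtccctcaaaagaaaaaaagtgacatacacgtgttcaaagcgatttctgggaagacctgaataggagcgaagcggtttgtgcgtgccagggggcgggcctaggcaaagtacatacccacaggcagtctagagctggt
Btg2 (chr1:134079156-134079405, minus strand): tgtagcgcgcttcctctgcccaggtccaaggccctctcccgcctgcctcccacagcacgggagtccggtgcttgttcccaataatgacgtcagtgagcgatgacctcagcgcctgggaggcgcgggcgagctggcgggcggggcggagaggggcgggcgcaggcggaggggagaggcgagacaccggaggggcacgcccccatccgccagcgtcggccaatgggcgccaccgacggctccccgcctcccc
Ephx1 (chr1:181017570-181017819, minus strand): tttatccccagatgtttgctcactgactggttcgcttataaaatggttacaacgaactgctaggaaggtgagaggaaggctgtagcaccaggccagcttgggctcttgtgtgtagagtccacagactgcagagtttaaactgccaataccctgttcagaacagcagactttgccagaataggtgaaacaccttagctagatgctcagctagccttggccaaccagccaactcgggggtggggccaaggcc
The upstream Cdkn1a window holds 2 half-sites, GGACTAGCTT from 73 and GAACATGTCT from 51 bases before the start, and the Mdm2 window holds GAACTTGCCT from 186 bases before it. The windows of Fas, Btg2, Ephx1 and the downstream Cdkn1a start hold no exact match, which says only that these letters are not in these bases. Of the 29 p53 genes with an entry, 12 hold at least 1 exact half-site in a window, or 41.4%, against 8.2% of the 27025 genes in the table. Per window the shares were 29.3% of 41 and 7.13% of 32851. For 32 of the 41, the bases just after the start were found in a GENCODE M21 transcript of the gene. The rest were kept as given. The consensus is its own reverse complement in degenerate form, so 1 search covers both strands. The other genes with a match are Aen, Bax, Ccng1, Ei24, Gadd45a, Polk, Ppm1d, Rps27l, Sesn1 and Trp53. Many of the 37 were first listed as targets because p53 binds near them, so this share is a description and was not tested.

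Of the 5 regulators, 3 rose and 1, Trp53 itself, fell in PBS against non-SP, where 27.6% of all genes were higher and 26.1% lower, and 3 fell and Trp53 rose in D-gel@GSNP against PBS, where 27.5% of all genes were lower and 27.4% higher. Trp53 was at 219.8, 221 and 214 CPM in D-gel@GSNP, 148, 160.1 and 145 in L-gel@GSNP, 149, 174 and 164 in D-gel@NP, 127, 142 and 146 in PBS and 206, 198 and 206 in non-SP. All D-gel@GSNP and non-SP libraries lay above all libraries of the other 3 groups. Trp53 was 1.47-fold lower in PBS than in non-SP, a log2 difference of -0.55 ± 0.0596 (SE, adjusted p = 5.94e-08), and 1.58-fold higher in D-gel@GSNP than in PBS, by a log2 difference of 0.66 ± 0.0596 (SE, adjusted p = 3.48e-09). It was also higher in D-gel@GSNP than in L-gel@GSNP and D-gel@NP, by a log2 difference of 0.53 and 0.42. D-gel@NP was above PBS by a log2 difference of 0.23 (adjusted p = 0.00512), and L-gel@GSNP was called neither against PBS (0.12) nor against D-gel@NP (-0.11). Mdm2, the ubiquitin ligase that is both target and inhibitor of p53, was at 132, 129.7 and 139.8 CPM in D-gel@GSNP, 190.4, 194 and 202 in L-gel@GSNP, 244, 276 and 254 in D-gel@NP, 294, 281 and 278 in PBS and 129, 131 and 129.8 in non-SP. Its groups rank PBS, D-gel@NP, L-gel@GSNP, then D-gel@GSNP and non-SP, which overlap. PBS was 2.19-fold above non-SP, with a log2 difference of 1.13 ± 0.0502 (SE, adjusted p = 3.72e-14), and L-gel@GSNP was below PBS with a log2 difference of -0.54 (adjusted p = 9.87e-09). D-gel@GSNP was below PBS with a log2 difference of -1.09 (adjusted p = 6.34e-14), below L-gel@GSNP with a log2 difference of -0.55 (adjusted p = 2.26e-09) and below D-gel@NP with a log2 difference of -0.95 (adjusted p = 3.86e-13). D-gel@NP was below PBS with a log2 difference of -0.14 (adjusted p = 0.0373), a call that was lost in 10 of the alternatives. Without D-gel@NP replicate 1 it was -0.089 (adjusted p = 0.246), without D-gel@NP replicate 3 -0.12 (adjusted p = 0.146), without PBS replicate 1 -0.105 (adjusted p = 0.175) and without PBS replicate 2 -0.146 (adjusted p = 0.0717).

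Mdm4, the relative of MDM2 that restrains p53, had another pattern. It was at 159.7, 171 and 179.8 CPM in D-gel@GSNP, 265, 279 and 298 in L-gel@GSNP, 239.8, 251 and 239 in D-gel@NP, 170.1, 170.1 and 178 in PBS and 179, 178 and 178 in non-SP. The L-gel@GSNP and D-gel@NP libraries were all above the other 9. Against PBS the log2 difference was 0.70 ± 0.0511 (SE, adjusted p = 3.19e-10) in L-gel@GSNP and 0.50 ± 0.0513 (SE, adjusted p = 2.3e-07) in D-gel@NP. PBS and non-SP differed by a log2 value of -0.044 (adjusted p = 0.495), with an interval of -0.15 to 0.062, and D-gel@GSNP and PBS with a log2 difference of -0.021 (adjusted p = 0.751). D-gel@GSNP was below L-gel@GSNP with a log2 difference of -0.72 (adjusted p = 3.65e-11) and below D-gel@NP with a log2 difference of -0.52 (adjusted p = 1.09e-08). Ccng1, a cyclin G that takes part in p53 feedback through a protein phosphatase, was at 272, 273 and 284 CPM in D-gel@GSNP, 577, 567 and 526 in L-gel@GSNP, 673, 785 and 733 in D-gel@NP, 834, 778 and 759 in PBS and 285, 292 and 285 in non-SP. It was 2.75-fold higher in PBS than in non-SP (1.46 on the log2 scale, adjusted p = 2.38e-15) and 2.86-fold lower in D-gel@GSNP than in PBS (log2 difference -1.52, adjusted p = 1.25e-15). Ppm1d, the phosphatase that resets p53 after damage, averaged 30.4 ± 2.60 CPM for D-gel@GSNP, 32.6 ± 2.02 for L-gel@GSNP, 33.4 ± 3.45 for D-gel@NP, 40.9 ± 2.42 for PBS and 27.4 ± 1.57 for non-SP (SD, n = 3). It was higher in PBS than in non-SP by a log2 difference of 0.58 (adjusted p = 2.83e-06) and lower in D-gel@GSNP than in PBS with a log2 difference of -0.43 (adjusted p = 9.62e-05).

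**Figure D3:**
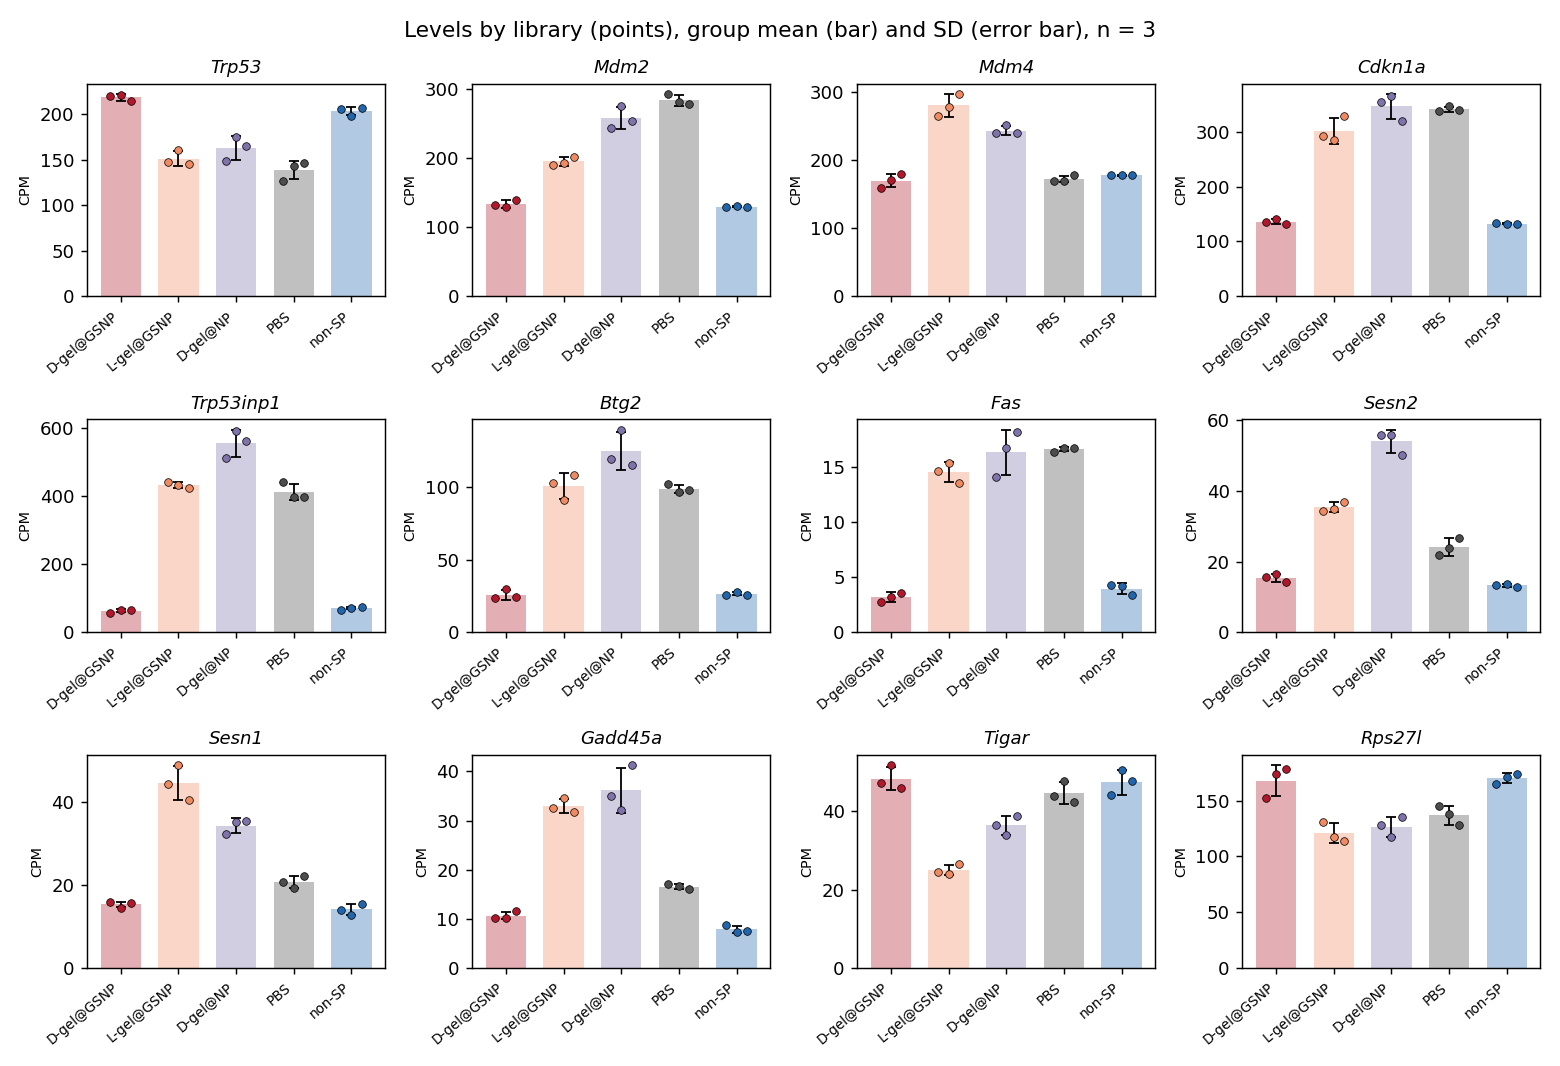
CPM of 12 of the p53 genes in each library (points), with group mean (bar) and SD (error bar, n = 3), for D-gel@GSNP, L-gel@GSNP, D-gel@NP, PBS and non-SP from left to right. Cdkn1a, Trp53inp1, Btg2 and Fas are low in D-gel@GSNP and non-SP and high in the 3 groups between them; Trp53 and Rps27l are lower in those 3 groups, Mdm4, Sesn1 and Gadd45a are highest in L-gel@GSNP or D-gel@NP, and Tigar is lowest in L-gel@GSNP.

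Of the 7 genes of growth arrest, 4 rose and 1 fell in PBS against non-SP (all genes: 27.6% and 26.1%), and 4 fell and 1 rose in D-gel@GSNP against PBS (all genes: 27.5% and 27.4%). Cdkn1a, whose product p21 blocks the cyclin-dependent kinases, was at 135, 141 and 131 CPM in D-gel@GSNP, 292, 285 and 329 in L-gel@GSNP, 353, 365 and 320.3 in D-gel@NP, 337, 346 and 340.1 in PBS and 133, 132 and 131 in non-SP. No D-gel@GSNP or non-SP library came near the other 9, and the D-gel@GSNP and non-SP libraries lay within 10 CPM of each other. Cdkn1a was 2.58-fold higher in PBS than in non-SP, by a log2 difference of 1.37 ± 0.0562 (SE, adjusted p = 1.11e-14), and 2.51-fold lower in D-gel@GSNP than in PBS, with a log2 difference of -1.33 ± 0.0561 (SE, adjusted p = 1.68e-14). D-gel@GSNP was also below L-gel@GSNP with a log2 difference of -1.15 (adjusted p = 7.18e-14) and below D-gel@NP with a log2 difference of -1.35 (adjusted p = 8.44e-15). L-gel@GSNP was below PBS with a log2 difference of -0.18 (adjusted p = 0.0114), a call lost without L-gel@GSNP replicate 1 (-0.14, adjusted p = 0.066) or replicate 2 (-0.13, adjusted p = 0.0974) and with upper-quartile factors (-0.11, adjusted p = 0.104). D-gel@NP and PBS differed by a log2 value of 0.02 (adjusted p = 0.829), with an interval of -0.094 to 0.13. L-gel@GSNP was below D-gel@NP with a log2 difference of -0.20 (adjusted p = 0.0139), a call lost without L-gel@GSNP replicate 1 (-0.17, adjusted p = 0.0578) or 2 (-0.157, adjusted p = 0.0794), without D-gel@NP replicate 2 (-0.154, adjusted p = 0.0864) and with only the 6 libraries compared (-0.186, adjusted p = 0.0826).

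Btg2, an antiproliferative gene whose product speeds the removal of poly(A) tails, was at 23.9, 30.0 and 24.0 CPM in D-gel@GSNP, 103, 91.3 and 109 in L-gel@GSNP, 119.7, 139.9 and 115 in D-gel@NP, 102, 96.8 and 98.2 in PBS and 25.7, 27.6 and 26.0 in non-SP. No library of D-gel@GSNP or non-SP came near the other 9, of which the lowest had 91.3 CPM. Btg2 was 3.75-fold higher in PBS than in non-SP (log2 difference 1.91, adjusted p = 4.64e-14) and 3.81-fold lower in D-gel@GSNP than in PBS (log2 difference -1.93, adjusted p = 3.48e-14). Gadd45a, a stress sensor that binds cell cycle kinases and repair proteins, was at 10.2, 10.2 and 11.6 CPM in D-gel@GSNP, 32.5, 34.6 and 31.7 in L-gel@GSNP, 35.1, 32.2 and 41.2 in D-gel@NP, 17.1, 16.6 and 16.0 in PBS and 8.67, 7.32 and 7.63 in non-SP. Unlike Btg2 it had PBS between the low and the high groups, overlapping with neither. The low groups, D-gel@GSNP and non-SP, did not overlap with each other, but edgeR's quasi-likelihood test did not call their difference (adjusted p = 0.0513). L-gel@GSNP was 1.99-fold and D-gel@NP 2.19-fold above PBS, by a log2 difference of 0.99 ± 0.0909 (SE, adjusted p = 9.87e-09) and 1.13 ± 0.0921 (SE, adjusted p = 7.13e-09). PBS was above non-SP by a log2 difference of 1.07 (adjusted p = 4.27e-09), and D-gel@GSNP below PBS with a log2 difference of -0.64 (adjusted p = 5.24e-06).

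Plk2, a polo-like kinase of the stress response, averaged 286 ± 11.7 CPM for D-gel@GSNP, 480.0 ± 15.9 for L-gel@GSNP, 423 ± 8.82 for D-gel@NP, 379 ± 11.3 for PBS and 263 ± 3.79 for non-SP (SD, n = 3). It was higher in L-gel@GSNP than in PBS by a log2 difference of 0.34 (adjusted p = 1.57e-06) and in PBS than in non-SP by a log2 difference of 0.53 (adjusted p = 1.28e-09), and lower in D-gel@GSNP than in PBS with a log2 difference of -0.41 (adjusted p = 5.49e-08). Plk3, a kinase of the same family, averaged 15.3 ± 2.75 CPM for D-gel@GSNP, 11.5 ± 1.04 for L-gel@GSNP, 16.4 ± 0.87 for D-gel@NP, 16.2 ± 0.822 for PBS and 15.4 ± 0.55 for non-SP and was lower in L-gel@GSNP than in PBS with a log2 difference of -0.49 (adjusted p = 0.000715). Between PBS and non-SP it differed by a log2 value of 0.072, with an interval of -0.15 to 0.30. Zmat3, an RNA-binding zinc finger protein, was not called against non-SP in PBS (log2 difference 0.098, interval -0.11 to 0.30). Rps27l, a ribosomal protein S27-like gene, was at 153, 174 and 178 CPM in D-gel@GSNP, 131, 117 and 114 in L-gel@GSNP, 128, 117 and 135 in D-gel@NP, 145, 138 and 128 in PBS and 165, 171 and 174 in non-SP. It ran against the other targets, lower in PBS than in non-SP with a log2 difference of -0.31 (adjusted p = 0.000374) and higher in D-gel@GSNP than in PBS by a log2 difference of 0.29 (adjusted p = 0.00066). Rps27l resembles other ribosomal genes. How reads shared with them were counted is not given, and an effect on its values was not tested.

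Of the 10 cell death genes, 9 rose and none fell in PBS against non-SP (all genes: 27.6% and 26.1%), and 9 fell in D-gel@GSNP against PBS (all genes: 27.5%). Trp53inp1, whose product promotes p53-dependent death and autophagy, had the largest difference of all 37 genes, at 57.5, 64.8 and 65.3 CPM in D-gel@GSNP, 441, 434 and 423 in L-gel@GSNP, 514, 594 and 562 in D-gel@NP, 441, 399 and 399 in PBS and 66.3, 72.4 and 73.8 in non-SP. The 6 D-gel@GSNP and non-SP libraries had at most 73.8 CPM and the other 9 at least 399 CPM. Trp53inp1 was 5.83-fold higher in PBS than in non-SP, by a log2 difference of 2.54 ± 0.0641 (SE, adjusted p = 4.57e-18), and 6.60-fold lower in D-gel@GSNP than in PBS, with a log2 difference of -2.72 ± 0.0645 (SE, adjusted p = 1.65e-18). Against L-gel@GSNP and D-gel@NP it was 6.92-fold and 8.90-fold lower in D-gel@GSNP. D-gel@NP was above PBS by a log2 difference of 0.43 (adjusted p = 1.1e-05), and L-gel@GSNP and PBS differed by a log2 value of 0.067 (adjusted p = 0.385).

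Perp, a membrane protein of desmosomes with a part in p53-dependent death, was graded over the groups, at 134, 125 and 123 CPM in D-gel@GSNP, 158, 159.6 and 152 in L-gel@GSNP, 227, 216 and 215 in D-gel@NP, 326, 315 and 278 in PBS and 119, 127 and 121 in non-SP. PBS, D-gel@NP and L-gel@GSNP did not overlap with each other, in that order from the top. Perp was lower than in PBS with a log2 difference of -0.97 ± 0.0555 (SE, adjusted p = 9.53e-12) in L-gel@GSNP and with a log2 difference of -0.48 ± 0.0554 (SE, adjusted p = 1.03e-06) in D-gel@NP, and 2.41-fold lower in D-gel@GSNP (log2 difference -1.27, adjusted p = 3.48e-14). Against non-SP it was 2.50-fold higher in PBS. Pmaip1, which encodes NOXA, a BH3-only activator of apoptosis, was 2.45-fold higher in PBS than in non-SP, at 248 ± 20.0 against 101 ± 3.19 CPM (SD, n = 3), with a log2 difference of 1.29 (adjusted p = 2.64e-12). Ei24, a protein of the endoplasmic reticulum, stood higher in PBS than in every other group, at 134 ± 6.02 CPM for D-gel@GSNP, 127 ± 4.38 for L-gel@GSNP, 140.4 ± 5.75 for D-gel@NP, 186 ± 5.86 for PBS and 128 ± 1.05 for non-SP (SD, n = 3). It was below PBS with a log2 difference of -0.55 (adjusted p = 6.76e-09) in L-gel@GSNP and -0.40 (adjusted p = 2.04e-06) in D-gel@NP, and with a log2 difference of -0.48 (adjusted p = 2.24e-08) in D-gel@GSNP.

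Bax, which opens the outer mitochondrial membrane, was higher in PBS than in non-SP by a log2 difference of 0.37 (adjusted p = 6.02e-05) and lower in D-gel@GSNP than in PBS with a log2 difference of -0.38 (adjusted p = 3.7e-05). Bbc3, which encodes PUMA, a BH3-only protein, averaged 7.55 ± 0.811 CPM for D-gel@GSNP, 11.9 ± 1.18 for L-gel@GSNP, 14.1 ± 2.49 for D-gel@NP, 10.2 ± 1.01 for PBS and 7.36 ± 1.57 for non-SP (SD, n = 3). Its difference between PBS and non-SP of 0.47 (adjusted p = 0.0104) was not called without non-SP replicate 1 (0.30, adjusted p = 0.0973) or PBS replicate 3 (0.39, adjusted p = 0.0525), and that between D-gel@NP and PBS of 0.48 (adjusted p = 0.0145) was not called without D-gel@NP replicate 2 (0.33, adjusted p = 0.117) or PBS replicate 1 (0.43, adjusted p = 0.0571). The fall of Bbc3 in D-gel@GSNP against PBS of -0.43 (adjusted p = 0.0162) was not called without D-gel@GSNP replicate 3 (-0.34, adjusted p = 0.0884) or PBS replicate 3 (-0.35, adjusted p = 0.0773), nor with thinned counts. Aen, a nuclease that cuts DNA in dying cells, was higher in PBS than in non-SP by a log2 difference of 0.38 (adjusted p = 3.82e-06) and lower in L-gel@GSNP than in D-gel@NP with a log2 difference of -0.48 (adjusted p = 2.21e-06). Phlda3, which holds back the kinase AKT, and Pidd1, a scaffold that activates a caspase, were higher in PBS than in non-SP by a log2 difference of 0.76 (adjusted p = 2.31e-11) and 0.71 (adjusted p = 5.39e-05), and lower in D-gel@GSNP than in PBS with a log2 difference of -0.60 (adjusted p = 9.05e-10) and -0.60 (adjusted p = 0.000282). Apaf1, the core of the apoptosome, was the death gene not called between PBS and non-SP (log2 difference -0.074, interval -0.22 to 0.072).

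All 3 death receptor genes rose in PBS against non-SP, as did 27.6% of all genes, and fell in D-gel@GSNP against PBS, as did 27.5%. Fas, the receptor of FAS ligand, was at 2.70, 3.24 and 3.61 CPM in D-gel@GSNP, 14.6, 15.4 and 13.6 in L-gel@GSNP, 14.1, 16.7 and 18.2 in D-gel@NP, 16.4, 16.7 and 16.7 in PBS and 4.29, 4.20 and 3.39 in non-SP. No D-gel@GSNP or non-SP library exceeded 4.29 CPM, and no other library was below 13.6 CPM. Fas was 4.20-fold higher in PBS than in non-SP, by a log2 difference of 2.07 ± 0.121 (SE, adjusted p = 3.18e-12), and 5.22-fold lower in D-gel@GSNP than in PBS, with a log2 difference of -2.38 ± 0.122 (SE, adjusted p = 3.83e-13). L-gel@GSNP and D-gel@NP differed from PBS by a log2 value of -0.20 (adjusted p = 0.147) and -0.013 (adjusted p = 0.95), with intervals of -0.42 to 0.028 and -0.24 to 0.22. Eda2r, the receptor of ectodysplasin A2, averaged 45.3 ± 0.969 CPM for D-gel@GSNP, 107 ± 5.67 for L-gel@GSNP, 136 ± 11.2 for D-gel@NP, 119.9 ± 7.35 for PBS and 47.3 ± 2.53 for non-SP (SD, n = 3), 2.53-fold higher in PBS than in non-SP and 2.65-fold lower in D-gel@GSNP than in PBS (adjusted p = 1.37e-13 and 6.07e-14). Tnfrsf10b, the mouse receptor of TRAIL, had the smallest of the called rises between PBS and non-SP, 0.22 (adjusted p = 0.00725), and it was not called without PBS replicate 2 (0.18, adjusted p = 0.0506). Its fall in D-gel@GSNP against PBS of -0.20 (adjusted p = 0.0107) was not called without D-gel@GSNP replicate 3 (-0.177, adjusted p = 0.0526) or PBS replicate 2 (-0.163, adjusted p = 0.0686). It was lower in L-gel@GSNP than in PBS with a log2 difference of -0.38 (adjusted p = 4.35e-05).

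Of the 5 DNA repair genes, 3 rose in PBS against non-SP, as did 27.6% of all genes, and 4 fell in D-gel@GSNP against PBS, as did 27.5%. Xpc, which recognises damage in nucleotide excision repair, was at 18.2, 18.2 and 19.4 CPM in D-gel@GSNP, 49.9, 43.1 and 47.1 in L-gel@GSNP, 42.6, 39.5 and 40.1 in D-gel@NP, 32.0, 31.5 and 31.7 in PBS and 16.5, 17.1 and 15.6 in non-SP. Its groups rank L-gel@GSNP, D-gel@NP, PBS and then D-gel@GSNP and non-SP, and only L-gel@GSNP and D-gel@NP come within 1 CPM of each other among the upper 3. Xpc was higher than in PBS by a log2 difference of 0.56 ± 0.0667 (SE, adjusted p = 4.63e-07) in L-gel@GSNP and 0.36 ± 0.0679 (SE, adjusted p = 0.000343) in D-gel@NP, and PBS was higher than non-SP by a log2 difference of 0.95 (adjusted p = 1.31e-10). D-gel@GSNP was below L-gel@GSNP with a log2 difference of -1.33 (adjusted p = 1.89e-13) and below PBS with a log2 difference of -0.77 (adjusted p = 2.76e-09).

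Polk, a translesion polymerase, and Ercc5, the nuclease XPG of excision repair, were higher in PBS than in non-SP by a log2 difference of 0.83 (adjusted p = 3.76e-12) and 0.84 (adjusted p = 2.79e-11). Both were lower in D-gel@GSNP than in PBS, with a log2 difference of -0.95 (adjusted p = 3.88e-13) and -0.81 (adjusted p = 4.31e-11), and in L-gel@GSNP than in PBS, with a log2 difference of -0.49 (adjusted p = 2.6e-08) and -0.26 (adjusted p = 0.000512). Ddb2, which recognises ultraviolet damage, and Rrm2b, the p53-induced subunit of ribonucleotide reductase, were not called between PBS and non-SP, with 0.14 (interval -0.074 to 0.36) and 0.027 (interval -0.14 to 0.19). Rrm2b was called lower in D-gel@GSNP than in PBS (log2 difference -0.21, adjusted p = 0.0272), with overlapping libraries, and not without PBS replicate 1 (-0.13, adjusted p = 0.181), D-gel@GSNP replicate 1 (-0.15, adjusted p = 0.155) or D-gel@GSNP replicate 2 (-0.19, adjusted p = 0.0909).

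Of the 5 genes of metabolism and stress signalling, 4 rose in PBS against non-SP (all genes: 27.6%) and 4 fell in D-gel@GSNP against PBS (all genes: 27.5%). The sestrins, which restrain the growth kinase mTOR, were higher in the L-gel@GSNP and D-gel@NP hydrogels than in PBS. Sesn1 was at 15.8, 14.5 and 15.6 CPM in D-gel@GSNP, 44.4, 48.8 and 40.5 in L-gel@GSNP, 32.3, 35.1 and 35.5 in D-gel@NP, 20.6, 19.2 and 22.2 in PBS and 14.0, 12.8 and 15.5 in non-SP. L-gel@GSNP, D-gel@NP and PBS each held a range of their own. Sesn1 was 2.15-fold higher in L-gel@GSNP than in PBS, by a log2 difference of 1.10 ± 0.0848 (SE, adjusted p = 6.94e-10), and 1.66-fold higher in D-gel@NP, by a log2 difference of 0.73 ± 0.0863 (SE, adjusted p = 1.33e-06). Sesn2 was at 15.5, 16.4 and 14.1 CPM in D-gel@GSNP, 34.3, 34.9 and 37.0 in L-gel@GSNP, 56.0, 56.0 and 50.2 in D-gel@NP, 21.8, 23.8 and 26.8 in PBS and 13.2, 13.8 and 12.8 in non-SP. Here D-gel@NP was the highest group, 2.24-fold above PBS by a log2 difference of 1.16 ± 0.0802 (SE, adjusted p = 5.07e-10), and L-gel@GSNP followed, 1.47-fold above PBS by a log2 difference of 0.55 ± 0.0794 (SE, adjusted p = 5.52e-06). Between these hydrogel groups Sesn1 was higher in L-gel@GSNP than in D-gel@NP by a log2 difference of 0.37 (adjusted p = 0.00294) and Sesn2 lower with a log2 difference of -0.61 (adjusted p = 8.76e-06). Against PBS, D-gel@GSNP was lower in both, with a log2 difference of -0.44 (adjusted p = 0.00019) for Sesn1 and -0.65 (adjusted p = 4.81e-07) for Sesn2.

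Tigar, a phosphatase that slows glycolysis, ran against the group, at 47.2, 51.6 and 46.0 CPM in D-gel@GSNP, 24.4, 23.9 and 26.4 in L-gel@GSNP, 36.4, 33.8 and 38.8 in D-gel@NP, 43.9, 47.7 and 42.4 in PBS and 44.1, 50.4 and 47.7 in non-SP. The L-gel@GSNP libraries were the lowest, D-gel@NP followed, and PBS overlapped with D-gel@GSNP and non-SP. It was 1.79-fold lower in L-gel@GSNP than in PBS, with a log2 difference of -0.84 ± 0.0732 (SE, adjusted p = 4.83e-09), lower in D-gel@NP than in PBS with a log2 difference of -0.30 (adjusted p = 0.00377), and 1.93-fold higher in D-gel@GSNP than in L-gel@GSNP, by a log2 difference of 0.95 (adjusted p = 1.38e-10). Gdf15, a secreted cytokine released under stress, was at 22.8, 23.6 and 20.0 CPM in D-gel@GSNP, 52.5, 50.0 and 61.1 in L-gel@GSNP, 73.4, 87.4 and 79.7 in D-gel@NP, 60.9, 66.2 and 66.4 in PBS and 21.3, 21.5 and 21.3 in non-SP. D-gel@NP exceeded PBS by a log2 difference of 0.32 (adjusted p = 0.00323), PBS was 3.02-fold above non-SP (log2 difference 1.59, adjusted p = 3.5e-13), and D-gel@GSNP was 2.91-fold below PBS (log2 difference -1.54, adjusted p = 4.9e-13).

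Ephx1, a microsomal epoxide hydrolase that detoxifies reactive compounds, was at 404, 400.1 and 373 CPM in D-gel@GSNP, 1276, 1291 and 1233 in L-gel@GSNP, 1202, 1226 and 1229 in D-gel@NP, 1419, 1352 and 1356 in PBS and 377, 377 and 376 in non-SP. The 6 D-gel@GSNP and non-SP libraries had at most 404 CPM and the other 9 at least 1202 CPM. It was 3.65-fold higher in PBS than in non-SP, by a log2 difference of 1.87 ± 0.0431 (SE, adjusted p = 1.16e-18), and 3.50-fold lower in D-gel@GSNP than in PBS, with a log2 difference of -1.81 ± 0.043 (SE, adjusted p = 1.65e-18). Per length it was also the highest of the 37 genes in PBS, at 709.9 ± 16.7 FPKM, followed by Ccng1 at 226 ± 10.5 FPKM, Rps27l at 169 ± 10.1 FPKM and Perp at 158 ± 12.6 FPKM. An annotated pseudogene, Gm36961, overlaps Ephx1 on the same strand.

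The 2 cell surface genes differed. Cd82, a tetraspanin reported to restrain metastasis, was at 26.7, 30.2 and 25.6 CPM in D-gel@GSNP, 62.5, 62.4 and 58.2 in L-gel@GSNP, 51.1, 51.8 and 47.8 in D-gel@NP, 53.1, 50.8 and 52.0 in PBS and 24.9, 25.7 and 23.3 in non-SP. It was higher in PBS than in non-SP by a log2 difference of 1.08 (adjusted p = 1.03e-11), lower in D-gel@GSNP than in PBS with a log2 difference of -0.92 (adjusted p = 9.76e-11) and higher in L-gel@GSNP than in PBS by a log2 difference of 0.23 (adjusted p = 0.00548). Epha2, an ephrin receptor kinase, averaged 315 ± 6.96 CPM for D-gel@GSNP, 259.9 ± 13.2 for L-gel@GSNP, 286 ± 11.9 for D-gel@NP, 284 ± 18.9 for PBS and 304 ± 4.67 for non-SP (SD, n = 3). It was not called between PBS and non-SP (log2 difference -0.10, interval -0.21 to 0.008), and its rise in D-gel@GSNP against PBS of 0.15 (adjusted p = 0.0182) was not called without D-gel@GSNP replicate 1 (0.14, adjusted p = 0.0619) or PBS replicate 1 (0.095, adjusted p = 0.13). The plot of differences sets these patterns side by side.

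**Figure D4:**
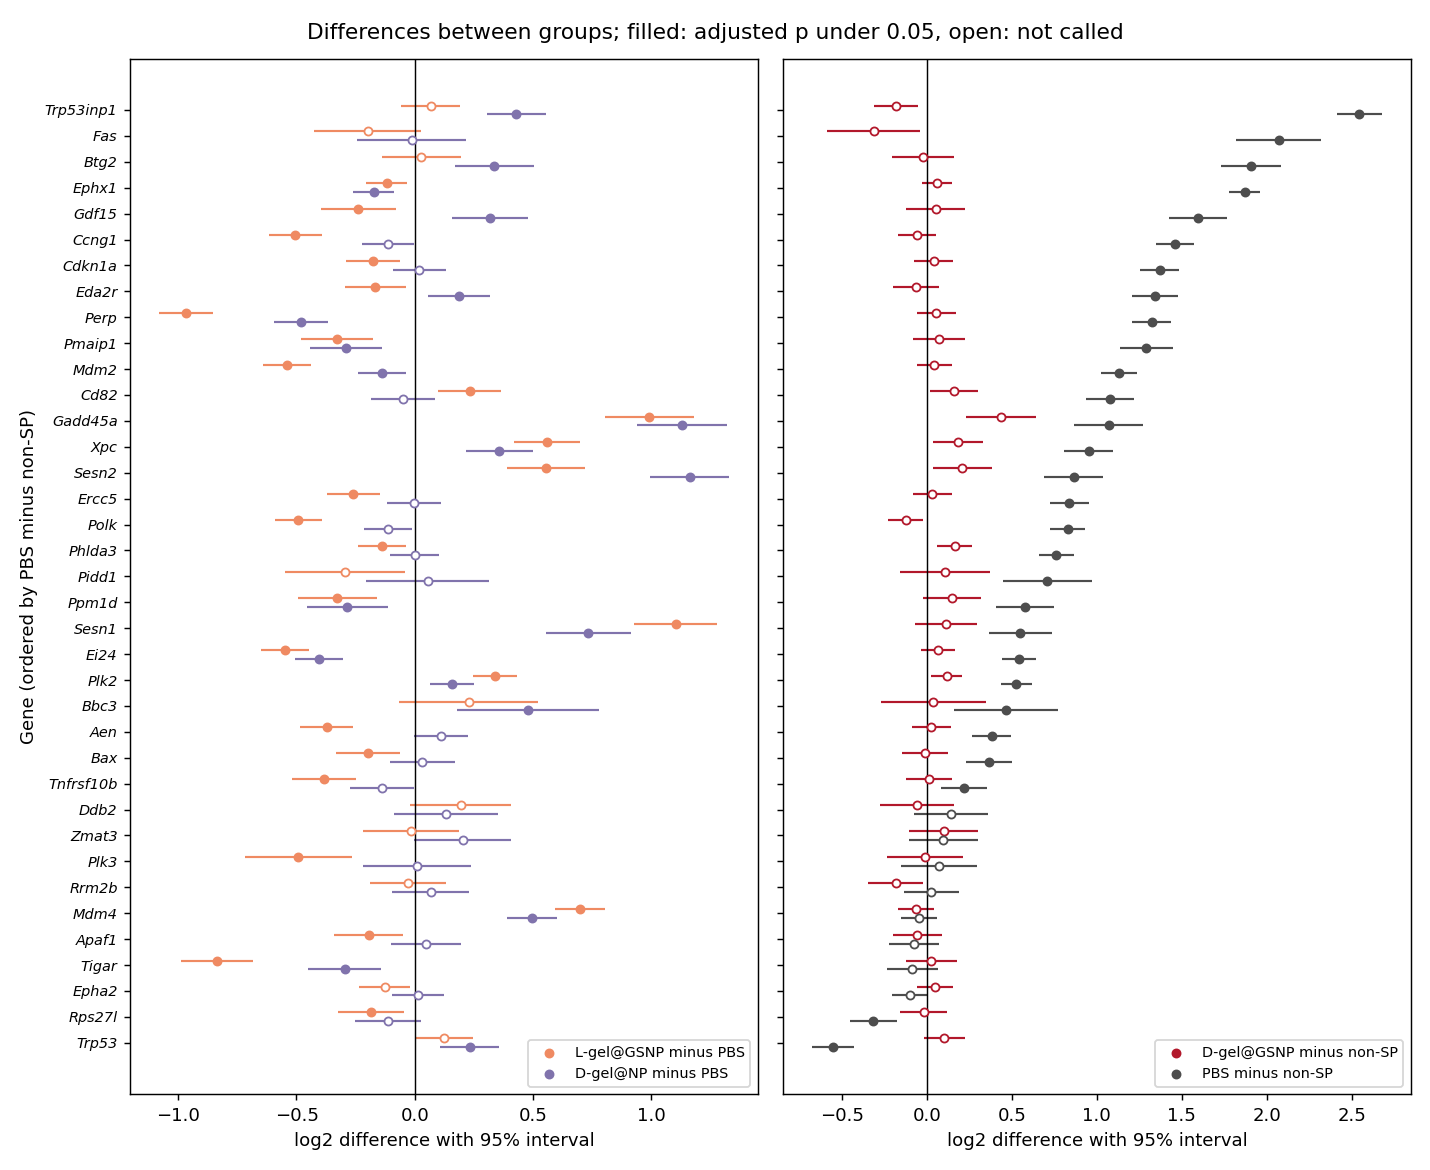
Log2 difference with its 95% interval for each of the 37 genes, ordered by PBS minus non-SP. Left, L-gel@GSNP minus PBS and D-gel@NP minus PBS, which share the PBS libraries; right, D-gel@GSNP minus non-SP and PBS minus non-SP, which share the non-SP libraries. Filled points have an adjusted p under 0.05: Sesn1, Sesn2, Gadd45a, Mdm4, Xpc and Plk2 lie right of 0 in both comparisons on the left, and no D-gel@GSNP minus non-SP point is filled.

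Against PBS, the L-gel@GSNP and D-gel@NP hydrogels thus held genes of both directions. In L-gel@GSNP the 7 genes above PBS were Mdm4, Gadd45a, Plk2, Xpc, Sesn1, Sesn2 and Cd82. In D-gel@NP the 7 below PBS were Mdm2, Ppm1d, Pmaip1, Perp, Ei24, Tigar and Ephx1. Directly compared, L-gel@GSNP was lower than D-gel@NP most clearly in Sesn2, Gdf15 (log2 difference -0.56, adjusted p = 2.15e-05), Tigar (log2 difference -0.54, adjusted p = 1.91e-05), Plk3 (log2 difference -0.50, adjusted p = 0.00227), Perp (log2 difference -0.49, adjusted p = 2.27e-06), Aen, Mdm2 (log2 difference -0.40, adjusted p = 5.39e-06) and Ccng1 (log2 difference -0.39, adjusted p = 1.69e-05), and higher in Sesn1, Cd82, Mdm4, Xpc and Plk2. The difference in Xpc of 0.20 (adjusted p = 0.0381) was lost without L-gel@GSNP replicate 1 (0.15, adjusted p = 0.172) or 3 (0.19, adjusted p = 0.0897), without D-gel@NP replicate 2 (0.18, adjusted p = 0.134) or 3 (0.19, adjusted p = 0.107), and in 2 other alternatives. For Ppm1d in D-gel@NP minus PBS (log2 difference -0.28, adjusted p = 0.0109) the call was lost without D-gel@NP replicate 1 (-0.22, adjusted p = 0.0711) or 3 (-0.25, adjusted p = 0.0628) or PBS replicate 2 (-0.24, adjusted p = 0.0614). D-gel@GSNP was above L-gel@GSNP in Trp53, Plk3, Rps27l, Apaf1, Tnfrsf10b, Tigar and Epha2, and above D-gel@NP in Trp53, Rps27l, Tigar and Epha2. Among these, Apaf1 and Tnfrsf10b against L-gel@GSNP (0.21 and 0.18) and Epha2 against D-gel@NP (0.14) were lost with upper-quartile factors, at 0.07, 0.035 and 0.015. Without L-gel@GSNP replicate 1 or 2 Apaf1 was at 0.18 in both fits (adjusted p = 0.0571 and 0.0581) and Tnfrsf10b at 0.147 and 0.139 (adjusted p = 0.0877 and 0.108), and Tnfrsf10b without D-gel@GSNP replicate 1 was at 0.164 (adjusted p = 0.0638). Epha2 was at 0.121 without D-gel@GSNP replicate 1 (adjusted p = 0.0897), 0.127 without D-gel@NP replicate 1 (adjusted p = 0.0742) and 0.095 without D-gel@NP replicate 3 (adjusted p = 0.175). Below non-SP were Trp53, Plk3, Rps27l, Apaf1, Tnfrsf10b, Tigar and Epha2 in L-gel@GSNP and Trp53, Rps27l and Tigar in D-gel@NP. Tnfrsf10b in L-gel@GSNP against non-SP (log2 difference -0.17, adjusted p = 0.0317) was lost without L-gel@GSNP replicate 1 (-0.134, adjusted p = 0.125) or 2 (-0.126, adjusted p = 0.151) and without non-SP replicate 1 (-0.166, adjusted p = 0.069) or 3 (-0.16, adjusted p = 0.0793), and with upper-quartile factors Apaf1 and Epha2 were lost as well, at -0.15 (adjusted p = 0.067) and -0.106 (adjusted p = 0.0762).

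Set against non-SP, the largest log2 differences in L-gel@GSNP were those of Trp53inp1 (2.61), Gadd45a (2.06), Btg2 (1.93), Fas (1.87), Ephx1 (1.75), Sesn1 (1.66), Xpc (1.51) and Sesn2 (1.42). In D-gel@NP minus non-SP they were those of Trp53inp1 (2.98), Btg2 (2.24), Gadd45a (2.20), Fas (2.06), Sesn2 (2.03), Gdf15 (1.91), Ephx1 (1.70) and Eda2r (1.53). Mdm2, Mdm4 and Cdkn1a were higher than in non-SP in L-gel@GSNP, by a log2 difference of 0.59, 0.66 and 1.19, and in D-gel@NP, by a log2 difference of 0.99, 0.45 and 1.39, and Trp53 was lower, at -0.43 in L-gel@GSNP and -0.32 in D-gel@NP. In D-gel@GSNP minus non-SP, where none was called, Trp53, Mdm2, Mdm4 and Cdkn1a stood at 0.10, 0.044, -0.066 and 0.041. D-gel@GSNP differed most from L-gel@GSNP in Trp53inp1 (-2.79), Fas (-2.19), Btg2 (-1.96), Ephx1 (-1.69), Gadd45a (-1.63), Sesn1 (-1.54), Xpc (-1.33) and Gdf15 (-1.30). From D-gel@NP it differed most in Trp53inp1 (-3.15), Fas (-2.37), Btg2 (-2.27), Gdf15 (-1.86), Sesn2 (-1.82), Gadd45a (-1.77), Ephx1 (-1.64) and Eda2r (-1.59). The genes listed as largest were picked among called genes whose groups did not overlap, so neither trait is a result. Groups did not overlap for 66.6% of all tested genes in L-gel@GSNP minus non-SP and 62.1% in D-gel@NP minus non-SP. The share was 67.3% in D-gel@GSNP minus L-gel@GSNP and 62.5% in D-gel@GSNP minus D-gel@NP. Trp53, Mdm2, Mdm4 and Cdkn1a in L-gel@GSNP and D-gel@NP against non-SP passed an adjusted p of 0.05 in edgeR's quasi-likelihood test.

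Genes around the pathway were described from 3 further lists. Of 24 tested genes upstream of p53 or acting with it, 3 were higher (Rchy1, Trp53bp1 and Trp63) and 10 lower in PBS than in non-SP, or 12.5% and 41.7% of the list, against 27.6% and 26.1% of all genes. The median log2 difference was -0.078. The lowest adjusted p belonged to Usp10 and Usp7, deubiquitinases that act on p53 and MDM2, at -0.68 (adjusted p = 5.64e-10) and -0.57 (adjusted p = 2.1e-09), and to Chek1, a checkpoint kinase, at -0.78 (adjusted p = 2.6e-09). All 3 were lower in PBS. Of 24 tested further reported targets, 11 were higher and 3 lower (Dram1, Lif and Dusp5), or 45.8% and 12.5% of the list against the same 27.6% and 26.1% of all genes, with a median of 0.15. Their leading genes were Ak1, an adenylate kinase, at 1.77 (adjusted p = 1.53e-14), Bcl6, a transcriptional repressor, at 2.35 (adjusted p = 5.44e-13), and Abhd4, a lipid hydrolase, at 0.60 (adjusted p = 3.88e-09). The median of these targets was -0.114 in D-gel@GSNP minus PBS, against -0.023 over all genes, and -0.206 in L-gel@GSNP minus PBS, against 0.001. It was -0.043 against -0.039 in D-gel@GSNP minus L-gel@GSNP and -0.038 against -0.037 in D-gel@GSNP minus D-gel@NP. Relative to non-SP it was 0.082 in L-gel@GSNP and 0.079 in D-gel@NP, where all genes had 0.041 and 0.039.

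The third list held cell cycle genes that p53 can lower through p21 and the DREAM complex. All 24 were lower in PBS than in non-SP, against 26.1% of all genes, with a median log2 difference of -0.73. All 24 were higher in D-gel@GSNP than in PBS, against 27.4% of all genes, with a median of 0.82. In both comparisons most of the 37 p53 genes were called in the other direction. Whether p53 or p21 had a part in the levels of these cell cycle genes was not tested. Plk1, a mitotic kinase, averaged 155 ± 10.5 CPM for D-gel@GSNP, 34.3 ± 3.60 for L-gel@GSNP, 36.0 ± 1.12 for D-gel@NP, 50.0 ± 4.48 for PBS and 142 ± 1.29 for non-SP (SD, n = 3). Mybl2, a cell cycle transcription factor, and Bub1b, a spindle checkpoint protein, differed by a log2 value of -1.41 (adjusted p = 5.01e-13) and -0.81 (adjusted p = 3.42e-12) between PBS and non-SP. In L-gel@GSNP 21 of the 24 were lower than in PBS, against 24.1% of all genes, and 1, Plk4, was higher, with a median of -0.29. There the 37 p53 genes were also more often lower than higher, 20 against 7, though with upper-quartile factors it was 12 against 9. In D-gel@NP 20 of the 24 were lower than in PBS, against 16.3% of all genes, and none higher, with a median of -0.29 as well. The 37 p53 genes were there more often higher than lower, 12 against 7, where 14.2% and 16.3% of all genes were higher and lower. D-gel@GSNP had none of the 24 called against non-SP by edgeR, where 0.103% of all genes were higher and 0.314% lower.

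Most calls did not rest on 1 library or setting. Of the calls, 27 of 29 for PBS against non-SP, 27 of 31 for D-gel@GSNP against PBS, 27 of 33 for D-gel@GSNP against L-gel@GSNP and 29 of 31 for D-gel@GSNP against D-gel@NP held under every alternative run. It was 19 of 27 for L-gel@GSNP and 15 of 19 for D-gel@NP against PBS, and 28 of 33 and 29 of 32 against non-SP. The share was lowest for L-gel@GSNP against D-gel@NP, where 16 of 23 held. Overlapping genes are annotated, in the earlier build, at Bax, Cdkn1a, Ddb2, Ei24, Gadd45a, Plk3, Rrm2b and Tigar besides Ephx1. The partners of Bax and Ephx1 lie on the same strand and the others on the opposite strand. The strand setting of the counting was not stated, so how reads in the shared stretches were assigned is not known.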

How the data were processed

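Per the labels' protocols, TRIzol RNA was made into paired-end Illumina libraries. The deposited whole-number counts per gene and the FPKM values were made by the authors; the submitters' processing notes name fastp 0.22.0, HISAT2 2.1.0, featureCounts, DESeq2 and GRCm39. Which annotation release was used, and how strand and multi-mapped reads were handled, is not given in the sources used here. For all 34259 genes the deposited FPKM are counts over 1 length per gene and over library totals, within a relative tolerance of 1e-04. Of counts from 1 to 20, 62.3% to 66.4% per library were even; whether mates were counted separately was not tested. Symbols came from GENCODE M21 (32434 of 34259 identifiers matched), and promoters from RefSeq tables of GRCm38.p6, so no gene coordinates on GRCm39 are given.

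The counts went into edgeR 4.0.16 (R 4.3.3): filterByExpr, TMM, and 1 quasi-likelihood fit of 5 group means to all 15 libraries, with 10 comparisons. Intervals are 95% intervals from the standard error. The biological coefficient of variation was 8.06%. The steps were also run on simulated counts in which few genes differed, and only in PBS. In most real comparisons far more genes were called, so that run does not test the scaling used here. Alternatives used RLE and upper-quartile factors, no filter, DESeq2 1.42.0, limma 3.58.1 on log2(FPKM + 1) and log2(FPKM + 0.1), only the 6 libraries compared, a replicate block and leaving out each library. Thinning all libraries to the shallowest and leaving out mitochondrially encoded genes were added after seeing the data. The 37 genes and the further lists were chosen with earlier results of these data known. Named in every comparison were the regulators Trp53, Mdm2 and Mdm4 with Cdkn1a, the 8 called genes with the largest difference and groups that did not overlap, and those called against the majority; of each further list, the 3 with the lowest adjusted p between PBS and non-SP. Other genes are given to account for all 37. The levels showed no pairing by replicate number: same-numbered libraries had correlations of their deviations from -0.036 to 0.045, none of 30 over 0.1. This does not tell whether same-numbered cultures were handled together.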

Additional observations from a re-analysis of the deposited data

How the results depend on the processing

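The edgeR fit made 258 calls over the 37 genes and 10 comparisons. RLE factors lost 1 and gained 0, DESeq2 lost 0 and gained 6, no filter lost 8 and gained 7, the fits of only the 6 libraries compared lost 12 and gained 2, limma lost 10 and 12 with pseudocounts of 1 and 0.1, thinning to the shallowest library lost 12 and leaving out mitochondrially encoded genes lost 4. Upper-quartile factors lost 17, gained 13 and turned 2 differences that were not called into calls of the other sign: Aen in D-gel@GSNP minus L-gel@GSNP, at -0.126 (adjusted p = 0.0486), and Ei24 in L-gel@GSNP minus non-SP, at 0.116 (adjusted p = 0.0435). The same factors moved the median of all genes by -0.145 and 0.12 in these comparisons, and by -0.121 in D-gel@GSNP minus D-gel@NP. They moved the share of higher among all calls to 57.1% from 47.1% in L-gel@GSNP minus PBS, to 57.2% from 46.5% in D-gel@NP minus PBS, to 38.1% from 49.4% in D-gel@GSNP minus L-gel@GSNP, to 38.6% from 49.3% in D-gel@GSNP minus D-gel@NP and to 61.2% from 51.2% in L-gel@GSNP minus non-SP; the cause was not tested. For D-gel@GSNP minus non-SP the count was 0, and 1 with no filter (Gadd45a, 0.43, adjusted p = 0.00459) and 1 with DESeq2 (Gadd45a, 0.43, adjusted p = 0.00719). Leaving out 1 library gave 28 to 29 calls for PBS minus non-SP (29 in the full fit), 29 to 30 for D-gel@GSNP minus PBS (31), 21 to 27 for L-gel@GSNP minus PBS (27), 16 to 19 for D-gel@NP minus PBS (19), 28 to 32 for D-gel@GSNP minus L-gel@GSNP (33), 30 to 32 for D-gel@GSNP minus D-gel@NP (31), 17 to 25 for L-gel@GSNP minus D-gel@NP (23), 0 for D-gel@GSNP minus non-SP, 30 to 33 for L-gel@GSNP minus non-SP (33) and 29 to 32 for D-gel@NP minus non-SP (32). With a replicate block, though the levels showed no pairing by number, the counts were 29, 31, 28, 19, 32, 31, 24, 0, 33 and 32 in the same order.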
